A study of Mus musculus with 16 samples.

Results

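The genes described here are 58 imprinted mouse genes, of which 45 were found as names of captured promoter fragments. A fragment counted as a member where one of the gene names attached to it, without any numeric suffix, equalled a gene of the list. Each of the 45 genes named 1 fragment, so they gave 45 of the 20017 promoter fragments in the data and 1211 of the 260860 listed interactions. They fell into 18 imprinted clusters. The other 13 genes had no fragment of their own name and are described near the end.

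The contacts came from promoter-capture Hi-C, in which crosslinked chromatin is cut with HindIII, ligated and enriched for promoter fragments (the baits), so that each interaction joins a bait to another fragment of the genome. The study compared mouse embryonic stem cells (ESC, day 0, grown in 2i and Lif) with epiblast-like cells (EpiLC, day 2) in 4 cell lines. DNMT_KO is a triple knock-out of the DNA methyltransferases Dnmt1, Dnmt3a and Dnmt3b, TET_KO lacks Tet1, Tet2 and also Tet3, whose enzymes start DNA demethylation, and DNMT_WT and TET_WT are the wild-type parents of each. Contacts give no check that the genes were deleted. The labels list 16 samples, 2 for each of the 8 groups of line and stage, and the scores come as 1 column per group. Each genotype is therefore 1 line, genotype and line cannot be told apart, and a column has no SD and an unknown depth. The reads were not separated by parental allele in the columns used here, so a contact of the maternal and of the paternal copy cannot be told apart.

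The deposited value is a CHiCAGO score, a measure of how far the reads of an interaction exceed a distance-dependent background, and a contact is named called in a column at a score of 5 or more. Scores were put on the asinh scale, which is close to a logarithm for high scores and accepts 0. The columns were quantile normalised, which gives all of them the same distribution. A promoter's value is the mean asinh score over its listed contacts, for promoters with at least 3 contacts scored in every column. On this scale a difference of 0.693 is a doubling of high scores. Since each listed contact reached 5 in at least 1 column, a value describes contacts called somewhere and not all contacts of the fragment.

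Imprinted genes are expressed from the copy of one parent, and the choice of copy is set by DNA methylation at an imprinting control region that was laid down in egg or sperm. Most of them lie in clusters, in which a control region acts over long distances through the insulator protein CTCF or through a long noncoding RNA. In the early embryo the marks are kept by DNMT1 together with the zinc finger protein ZFP57, which binds the methylated copy, and embryonic stem cells grown in 2i are known to lose part of them.

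Among the promoters, 4 are shown because the comparison of the stages turns on them: Plagl1, Asb4 and Cobl, which passed the test, and Grb10, whose contacts face those of Cobl. The 250 bases before the start are from RefSeq on GRCm38.p6, read on the strand of the gene, with each CG dinucleotide, the site of DNA methylation, in capitals. The windows are chr10:13090582-13090831 on the plus strand, chr6:5383136-5383385 on the plus strand, chr11:12464961-12465210 on the minus strand and chr11:12037421-12037670 on the minus strand.
Plagl1: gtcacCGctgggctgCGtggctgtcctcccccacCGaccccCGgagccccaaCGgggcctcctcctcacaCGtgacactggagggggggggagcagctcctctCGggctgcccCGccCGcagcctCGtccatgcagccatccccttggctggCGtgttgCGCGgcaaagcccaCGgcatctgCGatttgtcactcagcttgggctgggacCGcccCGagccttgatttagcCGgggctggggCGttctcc
Asb4: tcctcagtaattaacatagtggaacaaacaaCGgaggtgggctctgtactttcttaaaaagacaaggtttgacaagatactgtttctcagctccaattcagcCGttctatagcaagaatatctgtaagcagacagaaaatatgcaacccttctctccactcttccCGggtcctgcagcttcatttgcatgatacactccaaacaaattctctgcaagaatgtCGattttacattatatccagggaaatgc
Cobl: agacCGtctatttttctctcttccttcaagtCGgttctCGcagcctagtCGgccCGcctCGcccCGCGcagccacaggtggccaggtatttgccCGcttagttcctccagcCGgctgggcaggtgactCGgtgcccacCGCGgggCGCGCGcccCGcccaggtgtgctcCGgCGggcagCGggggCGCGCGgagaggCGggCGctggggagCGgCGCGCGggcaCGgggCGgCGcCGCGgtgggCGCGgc
Grb10: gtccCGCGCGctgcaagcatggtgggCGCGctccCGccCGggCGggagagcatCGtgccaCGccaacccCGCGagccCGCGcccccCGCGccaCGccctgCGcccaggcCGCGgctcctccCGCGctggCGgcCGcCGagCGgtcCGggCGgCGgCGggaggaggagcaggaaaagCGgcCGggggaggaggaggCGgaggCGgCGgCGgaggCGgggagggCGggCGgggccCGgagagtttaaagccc
The stretch of Grb10 holds 40 CG dinucleotides, that of Cobl 36, that of Plagl1 19 and that of Asb4 4. Grb10 and Cobl, which lie in 1 cluster, are thus both CpG-rich at their starts, and Asb4 is CpG-poor.

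The imprinted promoters had more listed contacts than most baits, a median of 19 against 8 over all baits. Of their 1211 contacts, 138 (11.4%) were called in all 8 columns, against 6.70% of all interactions, and 438 (36.2%) were called in 1 column, against 44.0%. Of the 138, the Peg3 cluster held 38 and the Peg10 cluster 32, and the Dlk1-Dio3, Htr2a, Impact and Rasgrf1 clusters held 0. The median distance of the imprinted contacts was 365 kb against 275 kb over all interactions. All but 6 lay on the chromosome of the bait, and 1062 (87.7%) lay within 1 Mb. The Peg3 cluster held the most contacts, 245 for the 3 baits of Peg3, Usp29 and Zim1, and the Snrpn-Ube3a, Peg10 and Mest clusters followed with 143, 139 and 112. The Snrpn-Ube3a cluster stood apart in distance, with 124 of its 143 contacts beyond 1 Mb and a median of 1928 kb. The share of imprinted contacts called ran from 36.3% in ESC of DNMT_KO to 46.1% in EpiLC of TET_KO, and over all interactions the same column of TET_KO was also the highest, at 38.6%.

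**Figure D1:**
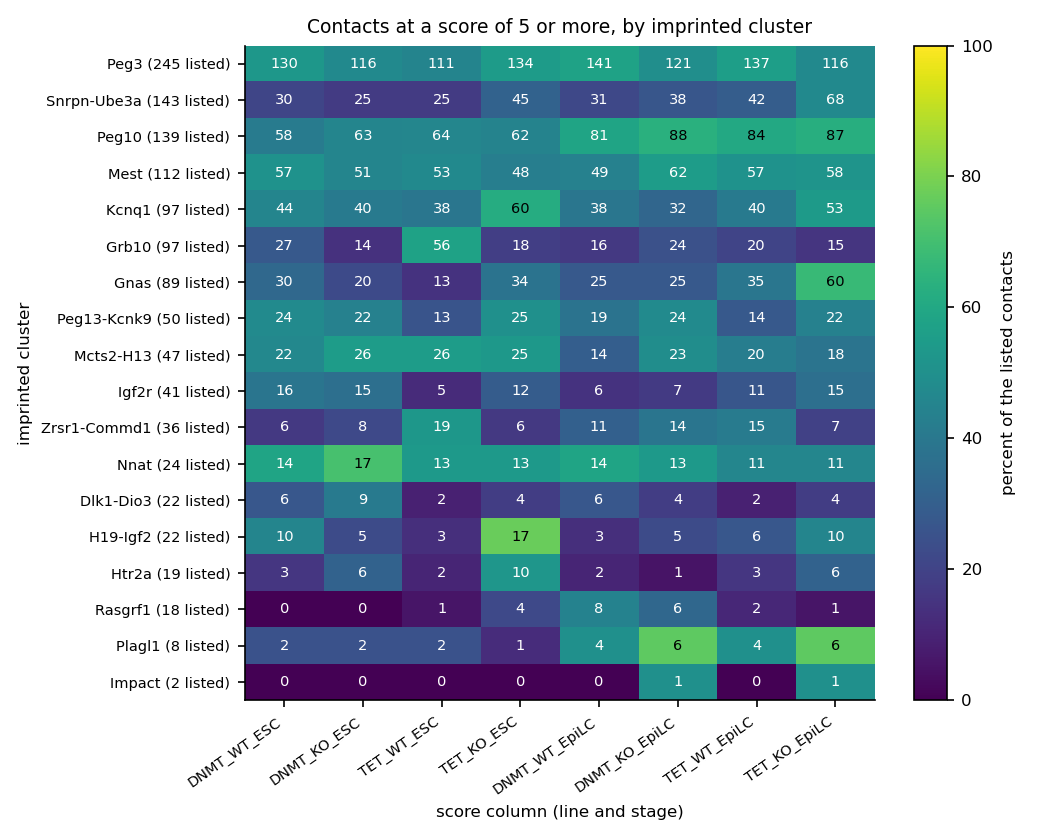
Contacts at a score of 5 or more in each of the 8 columns (x axis) for the 18 imprinted clusters (y axis, with the number of listed contacts), as counts in the cells and as percent of the listed contacts in colour. The Peg10 cluster has 58 to 64 called contacts in ESC and 81 to 88 in EpiLC, and the Grb10 cluster has 56 in ESC of TET_WT and 14 to 27 elsewhere.

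The cluster counts were of different kinds. In the Peg10 cluster the 4 EpiLC columns had 81, 88, 84 and 87 called contacts and the 4 ESC columns 58, 63, 64 and 62, in the order DNMT_WT, DNMT_KO, TET_WT and TET_KO, so the stages did not overlap. Most of these were contacts of Asb4, with 73, 73, 74 and 74 in EpiLC and 50, 57, 53 and 52 in ESC. The counts of Sgce, Ppp1r9a and Calcr overlapped between the stages. Over all interactions the share called also overlapped, at 31.9% to 35.9% in ESC and 33.7% to 38.6% in EpiLC. In the Grb10 cluster a single column, ESC of TET_WT, was high with 56, beside 27 in ESC of DNMT_WT, 14 in ESC of DNMT_KO and 18 in ESC of TET_KO. In the Gnas cluster EpiLC of TET_KO had 60 called contacts, and the other 7 columns had 13 to 35. In the Snrpn-Ube3a cluster TET_KO had the highest count at both stages, 45 in ESC and 68 in EpiLC, beside 25 to 30 and 31 to 42 in the other 3 lines. TET_KO was also the highest line over all interactions. In ESC 35.9% of them were called in TET_KO, beside 31.9% to 33.6% in the other lines. In EpiLC it was 38.6%, beside 33.7% to 36.0%. All these counts use the deposited scores, which were not normalised between columns. In the Nnat cluster each column had 11 to 17 of the 24 contacts called.

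The first question was which imprinted promoters changed their contacts between ESC and EpiLC. Of 42 promoters with enough contacts, 3 passed the test: Plagl1 and Asb4 rose in EpiLC and Cobl fell. These 3 of 42 (7.14%) stand beside 1391 of all 15677 promoters (8.87%), so imprinted promoters as a whole passed at about the rate of all promoters. The 2 rises stand beside 3.73% of all promoters and the single fall beside 5.14%. The median difference was -0.0033 over the 42 and -0.010 over all promoters. Values of the 4 EpiLC columns did not overlap those of the 4 ESC columns in 5 members, Plagl1, Grb10, Asb4, Copg2 and Slc22a2, which is 11.9% beside 13.6% of all promoters. The test was limma with the cell line as a block and Benjamini-Hochberg adjustment over all promoters at 0.05, and 9 of the 42 members (21.4%) had an unadjusted p under 0.05, beside 27.6% of all promoters.

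**Figure D2:**
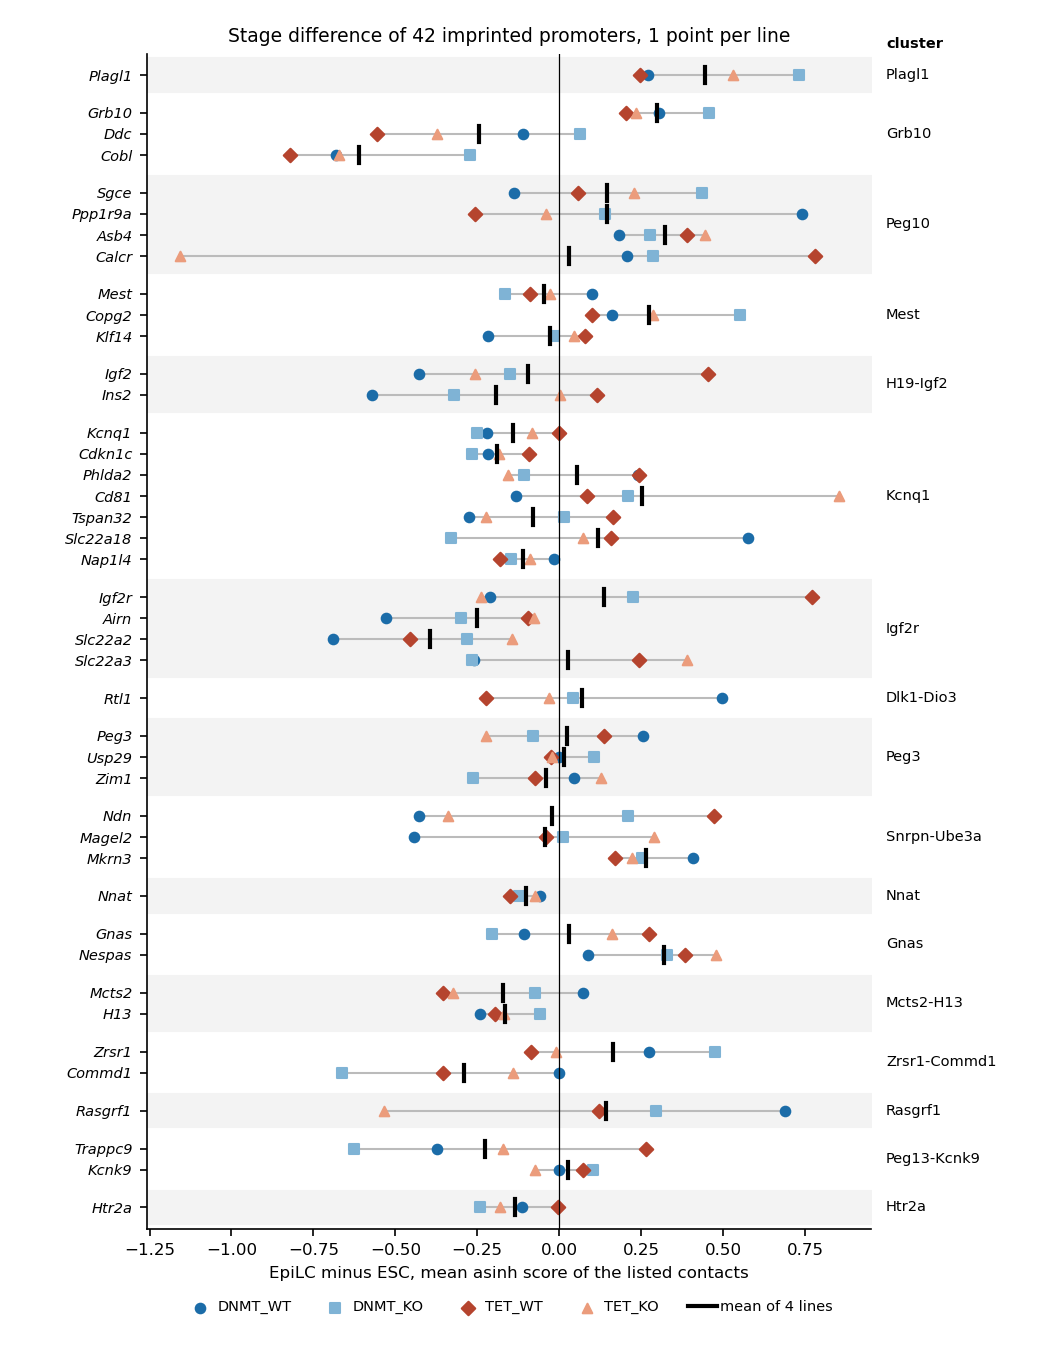
Difference between EpiLC and ESC in the mean asinh score (x axis) for each of the 42 tested imprinted promoters (y axis, grouped by cluster), with 1 point per line and a black bar at the mean of the 4 lines. All 4 lines of Plagl1, Asb4 and Grb10 lie above 0 and all 4 of Cobl lie below it, while lines of Calcr run from -1.16 to 0.78.

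Plagl1 encodes a zinc finger transcription factor that restrains cell proliferation and is expressed from the paternal copy. All 8 of its listed contacts ended in Phactr2, 324 kb to 382 kb away. Its promoter value in ESC was 1.73 in DNMT_WT, 1.62 in its knock-out DNMT_KO, 1.71 in TET_WT and 1.90 in TET_KO, and in EpiLC it was 2.00, 2.35, 1.96 and 2.43 in the same order. Every EpiLC value was above every ESC value, by the least in TET_WT (0.25) and by the most in DNMT_KO (0.73). The rise was 0.45 with a standard error (SE) of 0.12 (limma, adjusted p = 0.0299). The number of called contacts went from 1 or 2 per ESC column to 4 or 6 per EpiLC column. A single fragment of Phactr2, chr10:13436151-13436854 at 344 kb, passed the test on its own: its score in ESC was 2.49, 0.431, 2.35 and 3.23 and in EpiLC 5.24, 6.45, 10.1 and 7.83. It was under 5 in all 4 ESC columns and above 5 in all 4 EpiLC columns. The strongest Plagl1 contact, chr10:13433930-13434852, was called in all 8 columns at 5.24 to 10.2 and differed by 0.04 (SE 0.18), which is less than its error. The Plagl1 promoter lost its call without DNMT_KO (adjusted p = 0.146), without TET_WT (0.0511) and without TET_KO (0.132), and kept it without DNMT_WT.

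The Peg10 cluster on chromosome 6 was tested through the baits of Asb4, Sgce, Ppp1r9a and Calcr. Asb4 encodes an ankyrin repeat protein of ubiquitin ligase complexes and is maternally expressed. Its bait at chr6:5382284-5386248 had 109 listed contacts, all of those on its chromosome on the side of Casd1, Sgce and Ppp1r9a. The Asb4 value in ESC was 2.38, 2.25, 2.26 and 2.26, in the same order of lines, and in EpiLC 2.57, 2.53, 2.65 and 2.70. Every EpiLC value was above every ESC value, and the rise was 0.32 (SE 0.09, limma, adjusted p = 0.0357). Of 108 Asb4 contacts with a score in each column, 38 were higher in EpiLC in all 4 lines and 2 were lower in all 4, beside 11.5% and 13.2% of all tested contacts. These are the contacts that make up the promoter value, so the counts are not separate support for its rise. The contacts higher in all 4 lines included 17 of the 22 at 250 to 500 kb, most of them in Ppp1r9a. Asb4 lost its call when any 1 line was left out, with adjusted p of 0.0516 without the line DNMT_WT, 0.101 without its knock-out, 0.119 without TET_WT and 0.145 without its knock-out, at differences of 0.28 to 0.37.

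The strongest contact of all imprinted promoters was also one of Asb4, with a fragment 727 kb away at chr6:4655935-4657621. Its score was 34.2, 23.7, 30.4 and 33.5 in ESC and 30.4, 31.2, 41.8 and 32.8 in EpiLC, so the stages overlapped, and it differed by 0.12 (SE 0.18, limma, adjusted p = 0.762). A fragment of Casd1 at 765 kb, chr6:4618532-4619132, did pass the test: its score was 6.85, 3.02, 4.01 and 6.83 in ESC and 10.7, 15.5, 12.7 and 13.6 in EpiLC. All 4 EpiLC scores were above all 4 ESC scores. The Asb4 rise was thus spread over weaker contacts, while the strongest one was high in every column. Of the other baits of the cluster, Sgce differed by 0.15 (SE 0.12) and Ppp1r9a by 0.15 (SE 0.13) between the stages, and Calcr by 0.03 (SE 0.30); none passed.

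In the Grb10 cluster on chromosome 11 the order of the genes is Ddc, Grb10 and Cobl. Cobl encodes an actin nucleator of neurons and Grb10 an adaptor that dampens insulin receptor signalling, while Ddc makes dopamine and serotonin from their precursors. The Cobl value in ESC was 2.05 for DNMT_WT, 1.50 for its knock-out, 2.46 for TET_WT and 1.97 for its knock-out, and in EpiLC it was 1.37, 1.23, 1.64 and 1.30. It was lower in EpiLC in each line, although the ESC value of DNMT_KO lay below the EpiLC value of TET_WT, so the stages overlapped. The fall was 0.61 on the asinh scale (SE 0.16, limma, adjusted p = 0.0268). The number of called Cobl contacts was 12, 1, 27 and 11 in ESC and 0, 3, 5 and 2 in EpiLC. Cobl lost its call when any 1 line was left out, with adjusted p of 0.0737 without DNMT_WT, 0.0518 without its knock-out, 0.136 without TET_WT and 0.0893 without its knock-out.

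Most Cobl contacts were far ones, and these were on average lower in EpiLC. The 26 contacts at 500 kb to 1 Mb, between chr11:11798488 and chr11:11960556, in and beside Ddc and the far end of Grb10, differed by a mean of -0.82, -0.37, -1.003 and -0.71 in the 4 lines. In 14 of the 26 every line was lower in EpiLC. The 3 contacts 37.0 to 88.2 kb away were lower too, by 0.79, 0.62, 0.88 and 0.36 on average, and all 3 were lower in every line. Only 2 Cobl contacts were higher in EpiLC in all 4 lines, and both lay beside the Grb10 promoter, at chr11:12017322-12019760 and chr11:12033783-12034837. The latter, which abuts the Grb10 bait, scored 1.78, 0.722, 1.57 and 2.76 in ESC and 3.92, 4.89, 5.10 and 3.75 in EpiLC. Neither passed the test alone (limma, adjusted p = 0.199 and 0.203).

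The Grb10 value was 1.72, 1.59, 1.74 and 1.58 in ESC and 2.03, 2.05, 1.94 and 1.81 in EpiLC, with every EpiLC value above every ESC value, but the difference of 0.30 (SE 0.13) missed the threshold (limma, adjusted p = 0.153). Its 16 contacts within Cobl, 204 to 344 kb away, were higher in EpiLC by 0.97, 1.28, 0.84 and 0.83 in the 4 lines, and 14 of the 16 were higher in all 4. The 5 contacts at 477 to 494 kb, which lie upstream of the Cobl start, were also higher in the mean of the lines, by 0.32 to 0.81. The 7 contacts beyond 500 kb on that side were on average lower, by 0.54, 0.49, 0.25 and 0.38 in the 4 lines, and 5 of the 7 were lower in all 4. One of these 7, chr11:12551472-12554094 at 514 kb, passed the test: its score was 7.54, 6.24, 8.11 and 10.2 in ESC and 2.65, 2.04, 4.92 and 4.07 in EpiLC. It was above 5 in all 4 ESC columns and under 5 in all 4 EpiLC columns. Neighbouring fragments lie in the same stretch of chromatin, so these contacts are not independent of each other.

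**Figure D3:**
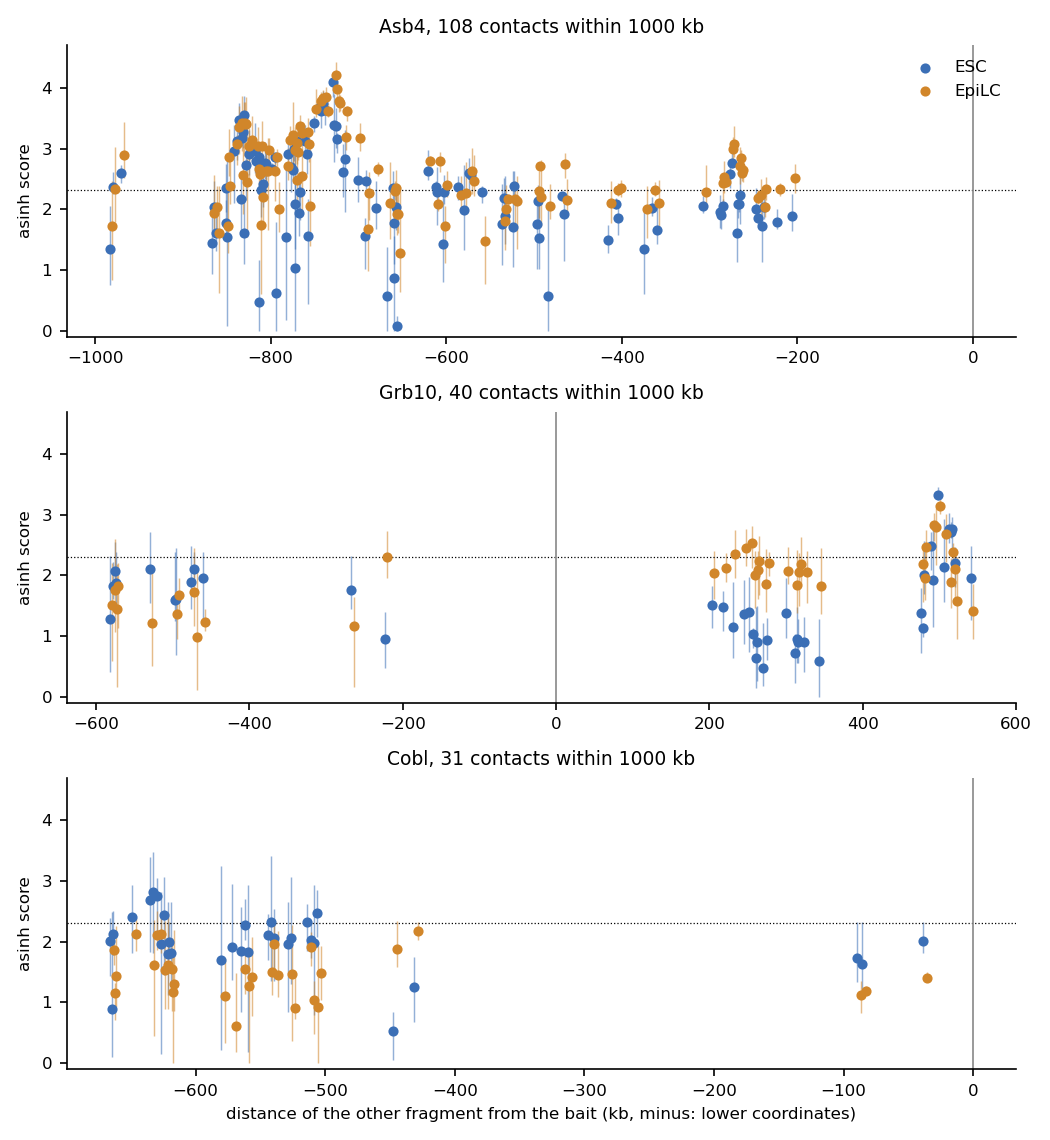
Asinh score of the contacts of Asb4, Grb10 and Cobl (y axis) against the distance of the other fragment from the bait in kb (x axis, lower coordinates negative). Points are means of the 4 lines and lines the range over the 4 lines, set slightly apart for ESC (blue) and EpiLC (orange), and the dotted line marks a score of 5. Grb10 contacts at 250 to 500 kb on the right sit mostly higher in EpiLC, those beyond 500 kb mostly lower, and the 26 far Cobl contacts mostly lower.

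Ddc, the third bait of that cluster, differed by -0.24 (SE 0.14, limma, adjusted p = 0.273). Its contact with the Cobl bait, 567 kb away, scored 6.55, 7.45, 10.4 and 6.96 in ESC and 3.55, 3.46, 5.86 and 3.43 in EpiLC. Each ESC score was above each EpiLC score, and the difference of -0.68 (SE 0.17) did not pass over all contacts (adjusted p = 0.0834).

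Of the promoters that did not pass, Copg2 and Nespas came nearest to the threshold. Copg2, a coatomer subunit gene that runs into Mest from the other side, was 2.01, 1.88, 2.17 and 1.95 in ESC and 2.17, 2.43, 2.27 and 2.23 in EpiLC (difference 0.27, SE 0.10, limma, adjusted p = 0.0918). The lowest EpiLC value, 2.17 in DNMT_WT, exceeded the highest ESC value, 2.17 in TET_WT, by less than the rounding. Nespas, the antisense RNA of the Gnas cluster, was 1.72, 1.58, 1.49 and 2.09 in ESC and 1.81, 1.91, 1.88 and 2.56 in EpiLC (difference 0.32, SE 0.12, adjusted p = 0.108), with TET_KO highest at both stages. Slc22a2, an organic cation transporter gene near Igf2r, was 2.07, 1.72, 1.77 and 1.48 in ESC and 1.38, 1.44, 1.32 and 1.34 in EpiLC (difference -0.39, SE 0.17, adjusted p = 0.157). It rests on 4 contacts.

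Members of some clusters with well-known control regions did not pass between the stages. Igf2, the paternally expressed growth factor, differed by -0.09 (SE 0.12), and Ins2 beside it by -0.19 (SE 0.12). In the Kcnq1 cluster, which is ruled by the long noncoding RNA Kcnq1ot1, the 7 promoters lay between -0.19 for Cdkn1c and 0.25 for Cd81. Cdkn1c, a brake on the cell cycle, had 8 contacts 529 to 599 kb away that were lower in EpiLC by 0.94, 1.17, 0.57 and 0.85 in the 4 lines, and its 18 contacts at 250 to 500 kb, mostly in Kcnq1, differed by a mean of -0.04. The Peg3 bait and the bait named for Usp29, with 114 and 93 contacts, differed by 0.02 (SE 0.10) and 0.01 (SE 0.09). Gnas differed by 0.03 (SE 0.10).

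Of 1172 single contacts of imprinted promoters that could be tested, 6 passed between the stages (0.512%), beside 771 of 244865 contacts in all (0.315%). Of these, 5 rose in EpiLC and 1 fell, and the contacts of Plagl1, Asb4 and Grb10 above are among them. Nespas with Ppp4r1l-ps, 709 kb away at chr2:173590090-173592266, scored 2.29, 4.30, 1.02 and 3.86 in ESC and 11.1, 11.1, 6.99 and 17.3 in EpiLC (difference 1.38, SE 0.18, limma, adjusted p = 0.0081). It was uncalled in all 4 ESC columns and called in all 4 EpiLC columns. Klf14, which encodes a zinc finger factor and is maternally expressed, had a contact that rose with Zc3hc1 585 kb away, chr6:30374471-30375075, with scores of 2.01, 2.22, 1.05 and 1.02 in ESC and 4.58, 6.54, 8.59 and 8.81 in EpiLC (difference 1.37, SE 0.28, adjusted p = 0.0456). Kcnk9, a potassium channel gene expressed from the maternal copy in brain, had a contact that rose inside Trappc9, chr15:73029041-73029209, with scores of 6.91, 1.37, 2.48 and 0.788 in ESC and 7.38, 8.38, 9.66 and 12.0 in EpiLC (difference 1.35, SE 0.28, adjusted p = 0.0466). In DNMT_WT that contact was called at both stages, and in the other 3 lines it was called only in EpiLC. None of the 6 passed when any 1 line was left out (adjusted p of 0.0761 to 0.347 over the 4 lines).

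**Figure D4:**
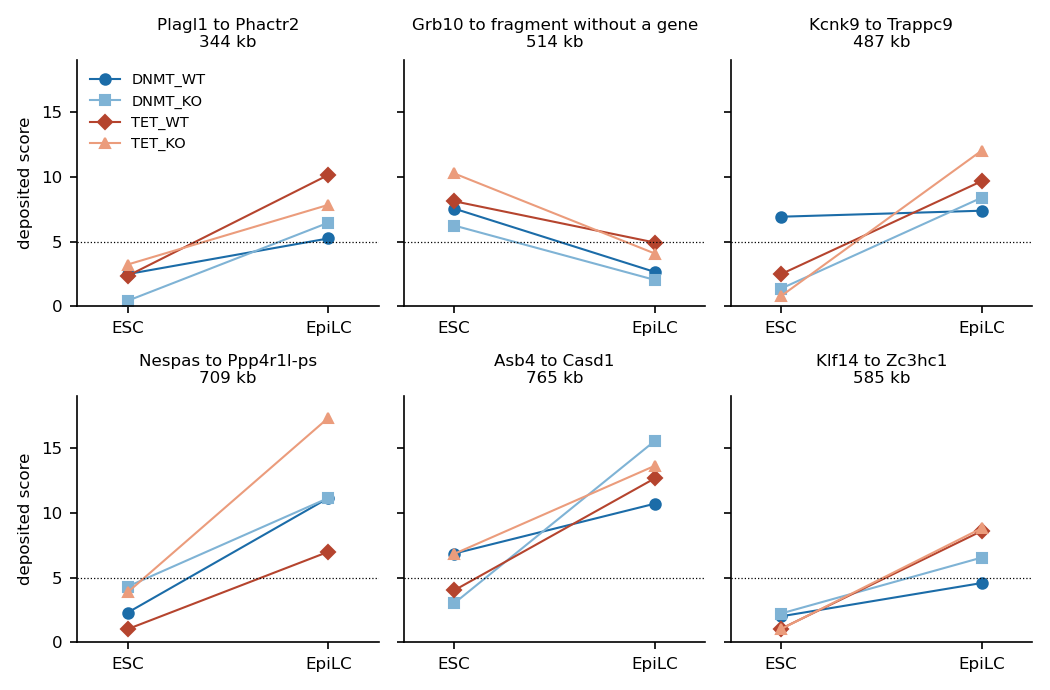
Deposited score (y axis) of the 6 imprinted contacts that passed the stage test, in ESC and EpiLC (x axis), with 1 line and symbol per cell line and a dotted line at a score of 5. Of these, 5 contacts are higher in EpiLC in all 4 lines, and the Grb10 contact at 514 kb is lower in all 4.

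The second question was whether loss of the DNA methyltransferases went with other contacts. No imprinted promoter passed between DNMT_KO and DNMT_WT (0 of 42), and over all 15677 promoters none did either (0%), with 520 (3.32%) at an unadjusted p under 0.05, 1 of them a member (2.38% of the 42). The test took the stages of a line as its replicates. The largest positive difference was that of Ppp1r9a, the gene of the actin-binding protein neurabin, with values of 1.60 in ESC and 2.34 in EpiLC of DNMT_WT and 2.32 and 2.46 in DNMT_KO. The difference of 0.42 (SE 0.18, limma, adjusted p = 0.9995) rested on the ESC column of DNMT_WT, which was low. Rtl1, a retrotransposon-derived placental gene, was 1.65 and 2.14 in DNMT_WT and 2.16 and 2.21 in DNMT_KO (difference 0.29, SE 0.20), and Slc22a18 was 1.77 and 2.34 against 2.41 and 2.08 (difference 0.19, SE 0.17). Slc22a18 was higher in the knock-out in ESC and lower in EpiLC.

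On the other side, Cd81, a tetraspanin gene of the Kcnq1 cluster, was 2.24 in ESC and 2.11 in EpiLC of DNMT_WT and 1.71 and 1.92 in DNMT_KO (difference -0.37, SE 0.21). Cobl was 2.05 and 1.37 against 1.50 and 1.23 (difference -0.34, SE 0.22), and Rasgrf1, a neuronal exchange factor gene, was 1.25 and 1.94 against 1.20 and 1.50 (difference -0.24, SE 0.29), with the opposite sign (0.04) over contacts within 1 Mb. All 6 had an adjusted p of 0.9995. At a single stage, 1 member passed a doubling in ESC (Ppp1r9a), beside 4.23% of all promoters, and 0 in EpiLC, beside 2.5%. No single contact of an imprinted promoter passed either (0 of 1172, beside 0.0049% of all contacts, with 62 (5.29%) at an unadjusted p under 0.05 beside 4.20% of all contacts). Some promoters of clusters with known control regions were close in both lines: Igf2 differed by 0.01 (SE 0.17) and Kcnq1 by 0.05 (SE 0.13). Peg3 differed by -0.05 (SE 0.14), Nespas by -0.02 (SE 0.18) and Airn by 0.00 (SE 0.16). Others of such clusters differed more, among them Cdkn1c by -0.12 (SE 0.13), Plagl1 by 0.12 (SE 0.17) and Mcts2 by 0.12 (SE 0.14). With SEs of 0.13 to 0.18 a small difference at these promoters was not detectable.

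The third question was the same for the demethylating enzymes. No imprinted promoter passed between TET_KO and TET_WT (0 of 42, beside 0.21% of all promoters, 33 in number), and 6 members (14.3%) had an unadjusted p under 0.05, beside 14.9% of all promoters. In 27 of the 42 the value was higher in TET_KO, and the median difference was 0.080 over the members and 0.0024 over all promoters. In ESC 4 members passed a doubling, Igf2, Igf2r and Calcr upward and Ddc downward, beside 5.63% of all promoters, and in EpiLC 2 did, Calcr and Ndn, both downward, beside 6.14%. Under 2 other settings members did pass: with only the 4 TET columns in the fit 3 did (Nespas with limma's adjusted p = 0.0197, Igf2 with 0.0452, and Cdkn1c), and with only promoters of at least 10 contacts 2 did (Nespas with 0.0255 and Igf2 with 0.0486). Without 1 of the 4 TET columns, in turn, 0 passed in each case.

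Nespas had the largest positive difference, with 1.49 in ESC and 1.88 in EpiLC of TET_WT and 2.09 and 2.56 in TET_KO (difference 0.64, SE 0.18, limma, adjusted p = 0.121). The EpiLC value of TET_KO was the highest of the 8 columns, and DNMT_WT and DNMT_KO lay at 1.58 to 1.91. Of the 41 Nespas contacts, 28 were higher in TET_KO at both stages and 2 were lower at both, beside 27.2% and 29.3% of all tested contacts. Such counts, here and for the members below, describe the same contacts as the promoter value and are not separate support for it. Contacts of a bait are also not independent of each other. Igf2 was 1.77 and 2.23 in TET_WT and 2.66 and 2.40 in TET_KO (difference 0.53, SE 0.17, adjusted p = 0.180), with 12 of 17 contacts higher at both stages and 0 lower at both. DNMT_WT (2.27 in ESC and 1.84 in EpiLC) and DNMT_KO (2.13 and 1.98) lay between them in ESC and below both in EpiLC. Mkrn3, a ubiquitin ligase gene at the edge of the Snrpn-Ube3a cluster, was 1.12 and 1.29 in TET_WT and 1.58 and 1.81 in TET_KO (difference 0.49, SE 0.29, adjusted p = 0.453). Its values in TET_KO were above those of the other 3 lines at the same stage.

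Cdkn1c was 2.08 in ESC and 1.99 in EpiLC of TET_WT, 2.55 and 2.37 in TET_KO, 2.27 and 2.05 in DNMT_WT and 2.17 and 1.90 in DNMT_KO. TET_KO was the highest line at both stages (difference from TET_WT 0.43, SE 0.13, limma, adjusted p = 0.150). Of its 34 contacts 26 were higher in TET_KO than in TET_WT at both stages and 1 was lower, and in 15 TET_KO was the highest of the 4 lines at both stages, beside 9.50% of all tested contacts. The contact of Cdkn1c with Kcnq1 at chr7:143110558-143111427, 353 kb away, scored 12.2 and 9.34 in TET_WT and 24.8 and 19.4 in TET_KO, and the DNMT lines had 7.71 to 12.7. In all, 7 Cdkn1c contacts ended in Kcnq1ot1, and they had a mean asinh score of 1.47 in ESC and 1.79 in EpiLC of TET_WT and 2.40 and 2.42 in TET_KO. DNMT_WT, at 2.02 and 2.12, and DNMT_KO, at 1.63 and 2.08, lay between them. TET_WT was thus the lowest line there at both stages, and TET_KO the highest. The Igf2 contact just upstream of H19, chr7:142580249-142582473, which begins 2.10 kb and ends 4.33 kb from the H19 start, where the control region of that cluster lies, scored 8.89 in ESC and 7.33 in EpiLC of TET_KO. In the other 6 columns it scored 2.08 to 4.44, so it was called in TET_KO alone, but the difference of 0.89 (SE 0.34) was not past the threshold (limma, adjusted p = 0.582).

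The members lower in TET_KO were led by Ddc, with 2.36 in ESC and 1.81 in EpiLC of TET_WT and 1.66 and 1.29 in TET_KO (difference -0.61, SE 0.20, limma, adjusted p = 0.182). Of the 21 Ddc contacts 18 were lower in TET_KO at both stages and 1 was higher. Ndn, a gene whose human form lies in the Prader-Willi syndrome region, was 1.40 and 1.87 in TET_WT and 1.36 and 1.02 in TET_KO (difference -0.45, SE 0.33), so the lines differed mainly in EpiLC. Zrsr1, a splicing factor gene that sits in an intron of Commd1, was 2.16 and 2.07 in TET_WT and 1.70 and 1.69 in TET_KO (difference -0.41, SE 0.18, adjusted p = 0.281), with 18 of 26 contacts lower at both stages and 0 higher. Klf14 showed the same lean with 33 of 56 contacts lower and 9 higher at both stages, at a difference of -0.19 (SE 0.13).

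To see how far wild-type lines differ, TET_WT was compared with DNMT_WT in the same way. Again 0 of 42 members passed, beside 0.0191% of all promoters (3 in number), and 1 member (2.38%) had an unadjusted p under 0.05, beside 7.98% of all promoters. Calcr, the calcitonin receptor gene, had the largest difference, with 0.41 in ESC and 0.62 in EpiLC of DNMT_WT and 1.18 and 1.96 in TET_WT (difference 1.06, SE 0.42, limma, adjusted p = 0.539), over 3 contacts. Ndn was 1.29 and 0.87 against 1.40 and 1.87 (difference 0.56, SE 0.33) and Cobl 2.05 and 1.37 against 2.46 and 1.64 (difference 0.34, SE 0.22). Cd81 was 2.24 and 2.11 against 1.70 and 1.79 (difference -0.43, SE 0.21), Rtl1 1.65 and 2.14 against 1.74 and 1.51 (difference -0.27, SE 0.20) and Kcnk9 2.22 and 2.22 against 1.96 and 2.03 (difference -0.23, SE 0.13). Apart from Calcr, the 42 differences between the wild-type parents lay within the range of those between TET_KO and TET_WT, which ran from -0.61 for Ddc to 0.64 for Nespas.

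A single imprinted contact passed in a line comparison, that of Usp29 with Zim2 in the Peg3 cluster, 304 kb apart. Usp29 encodes a ubiquitin protease. Its RefSeq start lies in the Peg3 bait, 224 kb from the fragment named for Usp29, so this contact is not one of that start. The fragment chr7:6653656-6656833 scored 15.5, 10.8, 3.23 and 13.6 with the Usp29 bait in ESC of DNMT_WT, DNMT_KO, TET_WT and TET_KO and 18.0, 14.9, 5.16 and 17.0 in EpiLC. TET_WT was the low line at both stages, and the other 3 lines did not overlap it. The contact passed between TET_KO and TET_WT (difference 1.24, SE 0.20, limma, adjusted p = 0.0435) and between TET_WT and DNMT_WT (difference -1.40, SE 0.20, adjusted p = 0.0169). It is 1 of 1172 imprinted contacts in each comparison, beside 0.0188% of all contacts in the former and 0.0159% in the latter, and both comparisons use the TET_WT columns. The call between TET_KO and TET_WT was lost when any 1 of the 4 columns was left out (adjusted p of 0.366 to 1.00). The call between the wild types was lost in the same way (adjusted p of 0.139 to 0.661), although without ESC of DNMT_WT 1 other imprinted contact passed, that of Magel2 with a fragment 1891 kb away, chr7:60486426-60487487. Magel2, a ubiquitin ligase regulator of the Snrpn-Ube3a cluster, scored 5.73, 10.2, 11.9 and 22.4 there in ESC and 1.76, 8.66, 15.2 and 19.9 in EpiLC (limma, adjusted p = 0.0865 with all columns), so DNMT_WT was the low line at both stages.

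The same Zim2 fragment was also low in TET_WT with the Peg3 bait, 64.7 kb away, with scores of 2.20 in ESC and 0.758 in EpiLC against 6.42 and 8.36 in DNMT_WT, 6.67 and 6.79 in DNMT_KO and 7.52 and 6.39 in TET_KO. Peg3, a paternally expressed zinc finger gene, did not pass there (difference 1.57, SE 0.32, limma, adjusted p = 0.164). A similar order was seen at Kcnk9 and Peg13, a noncoding RNA inside Trappc9 whose region carries the methylation mark of that cluster. The fragment chr15:72801924-72805696 scored 1.48 and 2.17 in TET_WT, 9.01 and 9.86 in TET_KO, 5.54 and 4.80 in DNMT_WT and 9.48 and 6.88 in DNMT_KO, in ESC and EpiLC (TET_KO minus TET_WT 1.55, SE 0.26, adjusted p = 0.0586). The next fragment, chr15:72805697-72806335, scored 3.69 and 3.17 in TET_WT and 10.6 and 12.5 in TET_KO. TET_WT was thus the lowest line at both Peg13 fragments at both stages, as it was at 93 of the 1172 tested imprinted contacts (7.94%), beside 6.67% of all tested contacts.

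**Figure D5:**
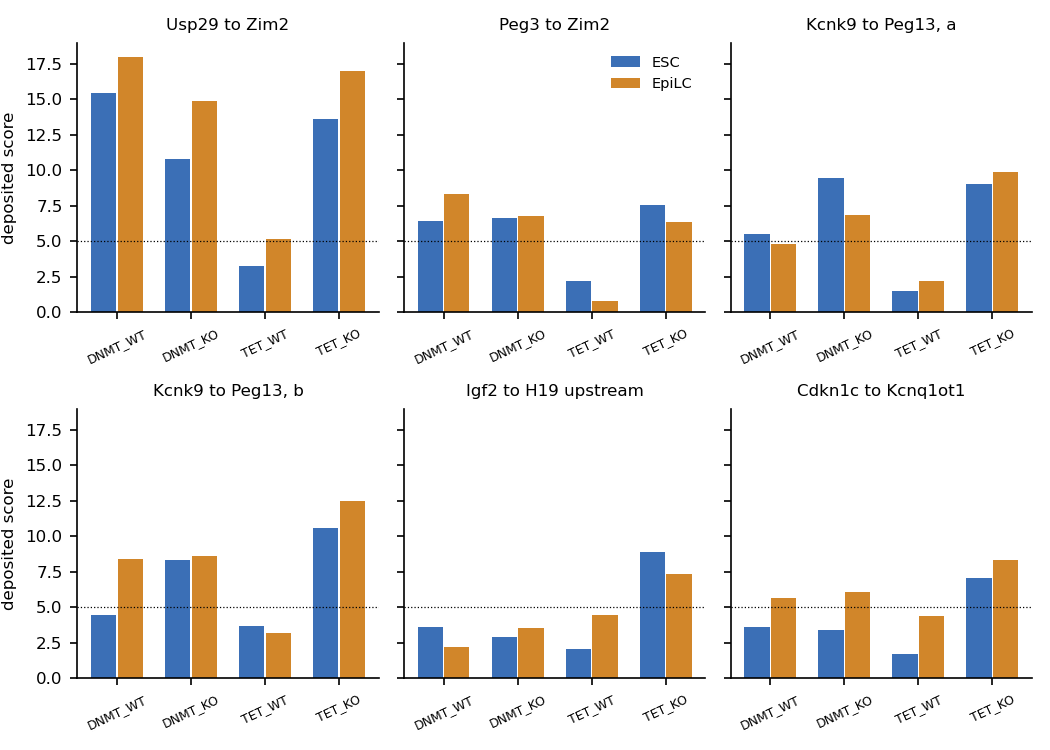
Deposited score (y axis) of 6 contacts of imprinted promoters in the 4 lines (x axis), in ESC (blue) and EpiLC (orange), with a dotted line at a score of 5. TET_WT is the lowest line at both stages for Usp29 and Peg3 with Zim2 and for Kcnk9 with both Peg13 fragments (a, b), and TET_KO is the highest for Igf2 with the fragment upstream of H19 and for Cdkn1c with Kcnq1ot1.

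Part of the contacts of imprinted baits ended in other imprinted genes. Of the 1211 contacts, 344 (28.4%) ended within another gene of the list. Listed genes of a cluster are neighbours and some are long, and no such share was computed for other genes. Sgce and Asb4, at 635 kb, were joined through their baits in every column, with scores of 20.9, 20.4, 19.2 and 22.9 in ESC and 21.3, 27.3, 20.0 and 29.4 in EpiLC. Sgce encodes a sarcoglycan and its bait overlaps Peg10. Ppp1r9a and Asb4, at 478 kb, scored 14.3, 11.4, 14.4 and 23.4 in ESC and 19.1, 25.9, 18.6 and 24.5 in EpiLC. Both contacts were called at both stages in all 4 lines. The Calcr and Asb4 baits, 1620 kb apart, were called in EpiLC of TET_WT alone, at 6.07.

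Peg3 had 34 contacts that ended in Usp29, with a mean asinh score of 2.26 to 2.66 over the columns. Since the RefSeq start of Usp29 lies in the Peg3 bait, these contacts also lie within the Usp29 gene. The strongest, chr7:6911091-6911714 at 191 kb, scored 22.6, 19.9, 10.9 and 21.9 in ESC and 18.4, 19.2, 16.2 and 16.9 in EpiLC. Cdkn1c had 24 contacts in Kcnq1, Kcnk9 30 in Trappc9, Asb4 23 in Ppp1r9a and Mkrn3 39 in the long RefSeq gene of Snrpn. Those of Mkrn3 lay about 2 Mb away and were weak, with a mean asinh score of 0.66 to 1.76, whereas those of Kcnk9 in Trappc9 had 2.03 to 2.43. The Kcnq1 bait met a fragment in Cdkn1c at 355 kb with scores of 5.76 to 9.76, called in all 8 columns. Slc22a3 met Airn, the noncoding RNA that silences it in placenta, at 305 kb with scores of 6.15 to 10.3, and Klf14 met Copg2 at 155 kb with 5.40 to 8.75.

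The strongest contacts of other clusters show how much strength varied. The mean score of the strongest was 19.4 at Kcnq1 (368 kb away), 16.3 at Nnat (in Ghrh, 220 kb), 14.1 at Gnas (in Ppp4r1l-ps, 699 kb), 14.0 at Mcts2 (158 kb) and 13.7 at Kcnk9 (in Trappc9, 472 kb). Grb10 reached 12.9 at 500 kb from its bait, Magel2 12.1 at 152 kb, Igf2 11.5 at 349 kb, Zrsr1 10.4 at 349 kb and Slc22a3 8.5 in Airn. All of these were called in all 8 columns. Htr2a, at 6.9 and 865 kb, was called in 6 columns, Rtl1 at 5.8 in 5, Rasgrf1 at 4.0 in 2 and Impact at 3.4 in 1. Rasgrf1 had 11 of its 18 contacts beyond 1 Mb, most of them at Zic1 and Zic4. Each of the 11 was called in 1 or 2 columns, and all of those columns were EpiLC. Of these 11, 4 have a score in every column, and the other 7 lack one in 1 or 2 ESC columns.

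Among members with a bait, 3 had too few complete contacts for a value. Dlk1, which encodes a Notch-like membrane protein, had 2 contacts, with Rian and at Mirg, and scored 5.53 in ESC of DNMT_WT for the former and 8.22 in ESC of TET_KO for the latter. Meg3, the noncoding RNA expressed from the maternal copy of the same cluster, had 4 contacts in Rian and Mirg. They have a score in DNMT_WT at both stages and in ESC of DNMT_KO and none in the other 5 columns. Impact had 2 contacts, each called in 1 column.

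Of the 13 members without a bait of their name, several appear as ends of contacts. Snrpn held the other end of 65 imprinted contacts, Rian of 8, Kcnq1ot1 of 7, Mirg of 5 and Peg13 of 2. H19 overlaps a bait named for Mir675, the microRNA it encodes, Peg10 the bait of Sgce and Zdbf2 a bait of Gpr1. Ascl2, Dio3, Ube3a and Dcn were neither baits nor ends of an imprinted contact here, and Zfp264 matched no RefSeq entry.

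Another list held 45 further genes that are reported as imprinted, and 28 of them had a tested promoter. Of the 28, 3 rose in EpiLC and 0 fell, beside the 3.73% and 5.14% of all promoters. They were Nap1l5 (0.39, SE 0.10, limma, adjusted p = 0.0233) and Herc3 (0.44, SE 0.13, adjusted p = 0.0398), of which the former lies in an intron of the latter, and Bmp8a (0.39, SE 0.11, adjusted p = 0.0432). Of 24 genes whose proteins set or keep imprints, 11 were tested, and Ctcfl, a germline relative of CTCF, fell by 0.43 (SE 0.10, adjusted p = 0.0231). None of either list passed in a line comparison.

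Sequence of the starts was described for members with a RefSeq promoter window of 300 bases, 250 before and 50 after the start. Of 34 members with a window, 31 had a start inside their bait, and 3, Zrsr1, Mest and Usp29, had starts outside it. Several of the 31 had further starts outside it, at Gnas 40.8 to 43.1 kb and at Igf2 3.89 to 7.67 kb away. The values of these promoters therefore leave out some starts of the gene. The RefSeq start of Usp29 lies in the Peg3 bait, 224 kb from the fragment named for Usp29. The 34 windows inside baits had a median of 14 CG dinucleotides, beside 7 in all 32851 windows. The motif TGCCGC, the core bound by ZFP57 when methylated, was found on either strand in 10 of the 34 (29.4%) beside 11.6% of all windows. They belong to Plagl1, Grb10, Nnat, Mcts2, Calcr, Copg2, Zim1, Commd1, Meg3 and Slc22a2. The windows of Peg3, Airn, Gnas and Igf2r inside baits held no such motif. GGNGGC, the middle of the CTCF motif, was found in 67.6% beside 61.8%. Windows with many CG hold such motifs more often, and a match is not a bound site.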

How the data were processed

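Per the labels' protocols, promoter-capture Hi-C was done on 16 samples, 2 for each of 8 groups, on HindIII fragments. The values are CHiCAGO scores in a table deposited by the authors, 1 score column per group; the aligner, the version of CHiCAGO and the way replicates were combined were not given in the sources used here. Per the submitters' processing notes, the tools and build include Trim Galore 0.6.5, cutadapt 2.3 and the build GRCm38. Each listed interaction reached a score of 5 in at least 1 column, and 15344 (5.88%) lack a score in some column and were left out of the tests. The columns hold no counts, so the depth per sample is unknown and no counting interval can be given.

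Scores were put on the asinh scale and quantile normalised, and averaged per promoter over at least 3 interactions. Differences were fitted with limma 3.58.1 in R 4.3.3, with line and stage as additive terms (3 residual degrees of freedom) and a variance trend, over all 15677 promoters, and likewise over 244865 single contacts on the bait's chromosome. Benjamini-Hochberg adjustment ran over each whole table at 0.05. The stage test takes the 4 lines as replicates and a line test takes the 2 stages as replicates, so p-values measure the spread between these columns. The scripts were tested on simulated promoter values. The stage differences planted there were larger than those of the promoters that passed, so differences of the size found were not covered. Members named in each comparison were those past the threshold, those without overlap between stages, those with the largest differences and the contacts past the threshold; other contacts were chosen after their values were seen. The members and lists were chosen with earlier results of these data known. Alternatives were other scalings, minimum numbers of interactions, the number of called contacts, contacts within 1 Mb, no variance trend, fewer columns and leaving out each line or column. Sequences and gene positions are from RefSeq, GRCm38.p6.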

Additional observations from a re-analysis of the deposited data

Results flagged for a closer look

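Within the 4 columns of a stage, a value far from the other 3 was looked for in the promoters named, and chance alone gives such a value in about 1 in 20 groups. Among ESC columns Asb4 was highest in DNMT_WT at 2.38, where the other 3 lay at 2.25 to 2.26. Kcnk9 was lowest among ESC columns in TET_WT at 1.96, where the others lay at 2.18 to 2.22. Among EpiLC columns Ddc was lowest in TET_KO at 1.29, beside 1.81 to 1.83, and Nespas was highest in TET_KO at 2.56, beside 1.81 to 1.91.

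A contact outside the tests, of Usp29 with a fragment of chromosome 4 (143976853 to 143978091), had a score of 39.5 in ESC and 9.47 in EpiLC of TET_WT and no score in the other 6 columns. Its source was not tested.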

How the results depend on the processing

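Of the 42 promoters, 3 passed between the stages. This became 2 without scaling or with columns divided by their mean, 3 with at least 10 contacts or within 1 Mb, 1 without the variance trend (Cobl), 0 without a minimum number of contacts (limma, 6 at an unadjusted p under 0.05), 0 by the number of called contacts (8 unadjusted) and 0 with the wild-type lines alone (3 unadjusted). The 3 with at least 10 contacts include Copg2 and not Plagl1, which has 8 contacts and was not tested there. Leaving out 1 line gave 0 to 1. The 6 stage contacts became 4 without scaling, 7 within 1 Mb, 0 without the trend (207 unadjusted) and 0 on leaving out any line (169 to 205 unadjusted). Between TET_KO and TET_WT the 0 promoters became 2 with at least 10 contacts and 3 with the 4 TET columns alone. The 1 contact there and the 1 between the wild types stayed 1 without scaling and became 0 without the trend (111 and 78 unadjusted); leaving out 1 column gave 0 for the former and 0 to 1 for the latter. These 3 settings of the line contacts were chosen after seeing the data. For DNMT_KO against DNMT_WT and for the wild types, 0 promoters passed under every setting run. Among differences that had not passed, Rasgrf1 (DNMT) turned to 0.041 within 1 Mb. On leaving out 1 column it ran from -0.61 to 0.12 (without EpiLC of DNMT_WT), Slc22a18 (DNMT) from -0.11 (without ESC of either line) to 0.49, and Rtl1 (wild types) from -0.55 to 0.013 (without EpiLC of DNMT_WT). Copg2 passed between the stages with at least 10 contacts (limma, adjusted p = 0.0437). Of 274 values of single promoters under these settings 240 kept direction and call, 24 lost the call, 5 gained it and 5 changed direction. Only Plagl1, Asb4 and Cobl had a call to lose, so the 24 losses are theirs. Most of the 274 values belong to differences that had not passed, for which keeping the call means staying uncalled. Of 54 values of single contacts, all of contacts that had passed, 12 kept direction and call and 42 lost the call. The causes were not tested. No paired analysis was possible because the columns carry no replicate numbers, apart from the pairing of the stages within a line, which the stage test holds.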
